A study of Mus musculus with 24 samples.

Results

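Lungs of C57BL/6 mice taken on postnatal day 4 were compared with lungs taken on postnatal day 1. The comparison holds 10 of the 24 arrays of the study, 5 at each of the 2 ages, chosen by the age in the sample labels. The other arrays cover days 7, 14 and 42 and entered the statistical model only to estimate the spread between replicates, or to show the later course of a gene. All animals were wild-type, untreated as far as the labels say, and described as healthy; the tissue was the whole lung, so airways, vessels and pleura are included. The labels call the replicates biological but do not say that each was a separate animal, and give neither sex nor litter, so the p-values measure the spread between these samples only. Total RNA was labelled with Cy3 and read on single-colour arrays, where the brightness of a probe stands for the level of its transcript. The lung markers Sftpc and Sftpb (surfactant proteins), Ager (alveolar type 1 cells), Scgb1a1 (club cells), Pecam1 (endothelium) and Nkx2-1 (lung epithelial transcription factor) each exceeded the background of all 5 arrays at both ages.

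The newborn mouse lung exchanges gas through simple thick-walled sacs. In the days after birth the walls between the sacs thin and stretch, fibroblasts lay down elastin, capillaries grow, and ridges called secondary septa begin to divide the sacs into alveoli. Over the same days the organ leaves the hormonal and oxygen conditions of birth, and resident immune cells settle in it.

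Levels below are log2 processed signals minus the 75th percentile of the array, so 0 is the brightness of that percentile and a step of 1 is a doubling; they compare arrays for 1 probe, not genes with each other. Differences are day 4 minus day 1 on that log2 scale, with the standard error of the fit. That error pools the spread of all 5 ages, which was not equal. The root mean square difference of an array from the mean of the other arrays of its age ran from 0.514 to 1.28 at day 1. It ran from 0.551 to 0.882 at day 4, 0.277 to 0.597 at day 7, 0.324 to 0.64 at day 14 and 0.5 to 1.39 at day 42. The printed errors can therefore be too small for days 1 and 4. In bulk tissue RNA, fewer cells of a type and less RNA per cell cannot be told apart. The 75th percentile ran from 476 to 1472 intensity units at day 1 (mean 1027 ± 423, SD, n = 5) and from 594 to 1357 at day 4 (1060 ± 305, n = 5), with p = 0.897 in a two-sided exact permutation test. The share of spots well above background was 50.4% to 64.6% at day 1 and 51.8% to 61.1% at day 4 (exact permutation p = 0.849).

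Replicates 4 and 5 of day 1 and replicates 1 and 3 of day 4 stood apart from the other 6 arrays. Together with day 42 replicate 4 they had the lowest 75th percentiles of the 24 arrays, from 476 to 979 against 996 to 1653 on the other 19, and these 5 are called low-signal arrays here. For the median gene tested they lay 0.40, 0.28, 0.34 and 0.23 above the mean of the 10 arrays, whereas the other 6 lay between -0.28 and -0.12. Of Xist, the RNA of the inactive X chromosome, and Ddx3y, a gene of the Y chromosome, 0 exceeded background on each of these 4 arrays and 1 did on each of the other 6. Both ages hold 2 low-signal arrays and 3 others, and differences of genes are given with all 24 arrays and with the 19 that remain without the low-signal ones; a value in square brackets after a difference is the 19-array difference of that gene. A fit of 18 arrays, which also leaves out day 14 replicate 5, was added after the data were seen, and that array was picked because leaving it out raised the number of genes called more than leaving out any other array. Wherever they are printed below, calls and adjusted p-values of the 18-array fit therefore only describe what the shared spread allows. They are no independent support, and these p-values cannot be read as error rates. Its differences equal those of the 19-array fit, since both hold the same day 1 and day 4 arrays, and only the spread differs.

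Few single genes passed the test across all genes. In the 24-array fit 10 of 15895 genes tested passed (0.0629%, limma with Benjamini-Hochberg adjusted p under 0.05), of which 7 (0.044%) were higher and 3 (0.0189%) lower at day 4. Scaling to the median of each array instead gave 2 higher and 2 lower. A fit of the day 1 and day 4 arrays alone called 0 genes. An unadjusted p under 0.05 was reached by 817 genes (5.14%), 497 higher (3.13%) and 320 lower (2.01%). The 19-array fit called 13 genes (0.0818%), 12 higher (0.0755%) and 1 lower (0.00629%), and shared 2 with the first, Scube2 and Prkcq. In it 1460 genes (9.19%) had an unadjusted p under 0.05, 893 higher (5.62%) and 567 lower (3.57%). In the 18-array fit 260 genes passed (1.64%), 155 higher (0.975%) and 105 lower (0.661%). These 260 included 9 of the 10 genes of the 24-array fit and all 13 of the 19-array fit, and all 260 had the same sign with 24 arrays. The fits share day 1 and day 4 arrays, so the shared calls and signs are no independent support. Counted without a model, 170 genes (1.07%) had all 5 day 4 values above all 5 day 1 values and 87 (0.547%) had them all below. Among the 3 arrays of each age that were not low-signal, 1622 genes (10.2%) were separated upwards and 1209 (7.61%) downwards. Of the 10 genes called with 24 arrays, 9 had groups of 5 that did not overlap, all but Npy1r. For these 9 the same direction within each of the 3 slides follows from the lack of overlap and adds nothing to it. Npy1r also kept its direction in each slide. With slide as a block in the 24-array fit 7 of the 10 genes passed (limma), and Vsnl1 (adjusted p = 0.0800), Hlf (0.102) and Ptges3l (0.102) did not.

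**Figure D1:**
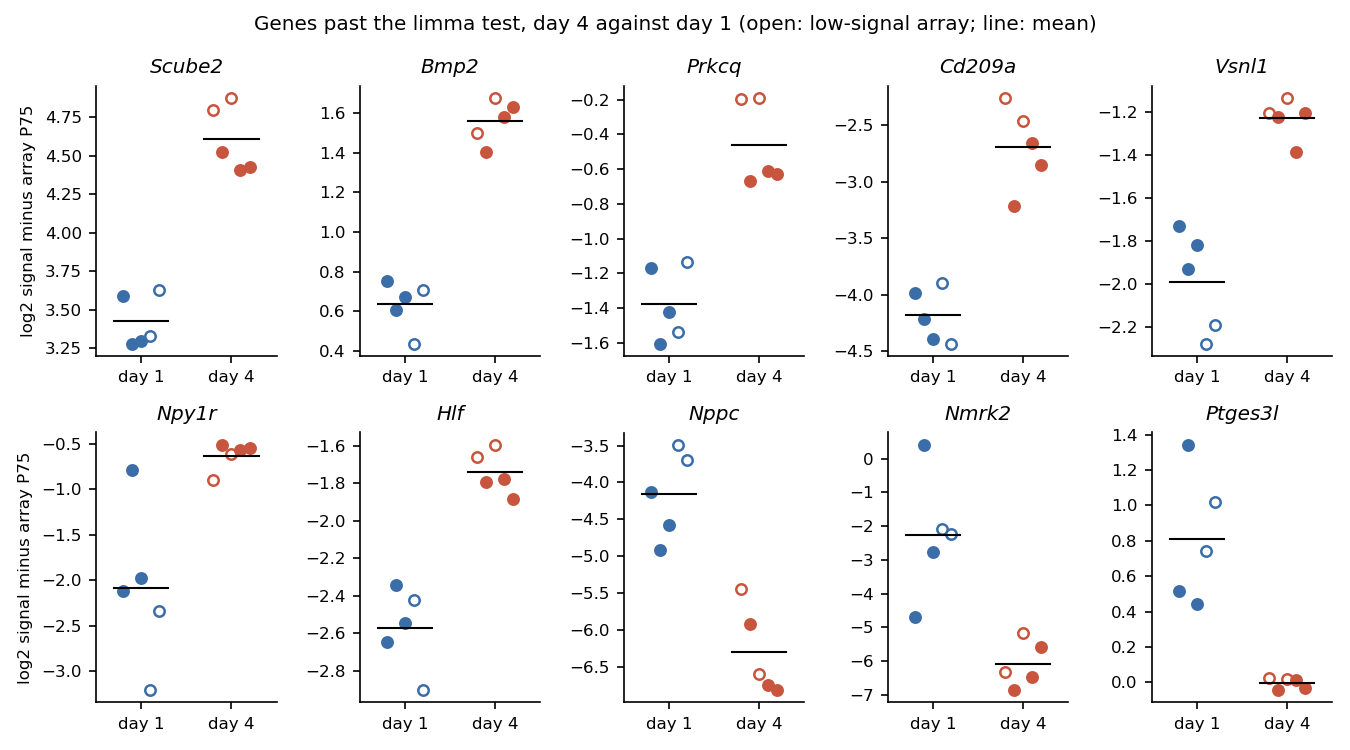
Level of the 10 genes that passed the limma test on each day 1 and day 4 array (vertical axis, log2 signal minus the 75th percentile of the array; open circles are low-signal arrays, lines are means of 5 arrays). In 9 of the 10 genes the groups do not overlap; the exception is Npy1r, where day 1 replicate 2 lies at -0.79 and day 4 replicate 1 at -0.90.

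**Figure D2:**
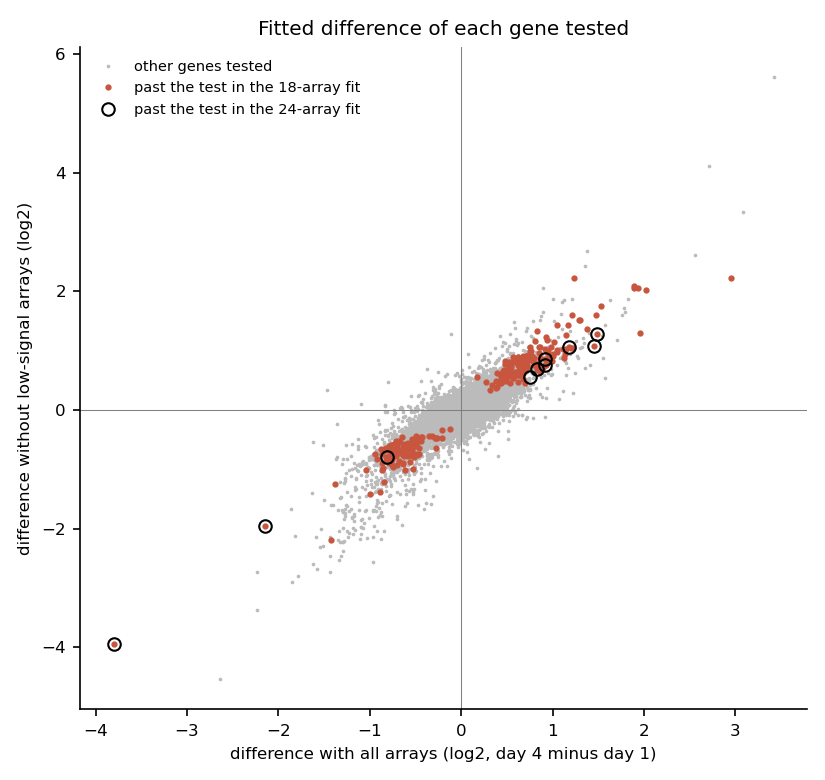
Fitted difference of each of the 15895 genes tested with all 24 arrays (horizontal axis) and without the 5 low-signal arrays (vertical axis), both log2, day 4 minus day 1. The 260 genes that passed in the 18-array fit lie in the quadrants where both differences have the same sign. Both differences share arrays, so the same sign is no independent support.

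Among secreted signals, Scube2 and Bmp2 rose. Scube2, a secreted protein that helps release Hedgehog ligands from the cell that makes them, read 3.59, 3.28, 3.30, 3.33 and 3.63 on day 1 replicates 1 to 5 and 4.80, 4.53, 4.87, 4.41 and 4.43 on day 4 replicates 1 to 5. Every day 4 array was above every day 1 array, and the low-signal arrays of day 4 were the highest. The difference was 1.18 ± 0.18 (2.26-fold, n = 5 and 5, limma adjusted p = 0.00974), and 1.06 with adjusted p = 0.0111 with 19 arrays. Its 2 probes both pointed up, by 0.79 and 1.18. Scube2 was the only Hedgehog pathway gene of 17 tested to pass, and the median of the list was -0.12, with 6 of 17 above 0 (0.00 with 19 arrays and 9 above 0), beside -0.00 for all genes (0.04 with 19 arrays). The ligand Shh differed by -0.21 ± 0.22 (0.01 with 19 arrays) and the pathway's transcription factor and target Gli1 by -0.13 ± 0.24 (0.05), neither past the test.

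Bmp2, a bone morphogenetic protein that acts in vessel and epithelial development, read 0.75, 0.61, 0.67, 0.44 and 0.71 at day 1 and 1.5, 1.40, 1.68, 1.58 and 1.63 at day 4. The groups did not overlap, with a gap wider than the range of either, and the low-signal arrays did not stand apart as a class. Bmp2 rose by 0.92 ± 0.14 (1.90-fold, limma adjusted p = 0.00974), by 0.95, 0.75 and 0.98 within slides 1, 2 and 3, and by 0.86 with 19 arrays (adjusted p = 0.0653). Its later course turned, with means of 1.17 at day 7, 0.52 at day 14 and -0.18 at day 42. Of 25 BMP pathway genes tested, 20 had a difference above 0 (median 0.15, and 0.20 with 19 arrays), while 49.7% of all genes did (57.6% with 19 arrays), and Bmp2 alone passed with 24 arrays.

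Among extracellular regulators of BMP, none passed with 24 arrays. The inhibitor Grem1 differed by 1.21 ± 0.63 (1.61 with 19 arrays; adjusted p = 1 with 24 and 0.0391 with 18 arrays, limma), and Bmper, a BMP-binding endothelial regulator, by 0.50 ± 0.18 [0.43]. Downstream, the BMP target Id1 differed by 0.03 ± 0.35 [0.28] and the ligand Bmp4 by 0.18 ± 0.16 [0.20], neither past the test.

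Among peptide signals, Nppc fell and the receptor gene Npy1r rose. Nppc encodes C-type natriuretic peptide, an endothelial and cartilage signal that works through cyclic GMP. Its probe read -4.13, -4.92, -4.58, -3.49 and -3.69 at day 1 and -5.45, -5.93, -6.60, -6.74 and -6.82 at day 4. It was well above background on all 5 day 1 arrays and on 0 of 5 day 4 arrays, so day 4 holds only a bound. Nppc was at least 2.36-fold lower at day 4, taking for each day 4 array the higher of its own value and the lowest well-above-background signal of that array (fitted difference -2.14 ± 0.33, limma adjusted p = 0.00974, and -1.95 with adjusted p = 0.0708 with 19 arrays). Its mean stayed low later, at -6.70, -7.57 and -7.04 on days 7, 14 and 42.

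Npy1r, a receptor for neuropeptide Y, read -2.12, -0.79, -1.97, -3.20 and -2.33 at day 1 and -0.90, -0.51, -0.62, -0.57 and -0.55 at day 4. Day 1 replicate 2 reached the day 4 range, and the day 4 values lay close together. The difference of 1.45 ± 0.27 passed (limma adjusted p = 0.0447), and was 1.08 with adjusted p = 0.133 with 19 arrays. Of 19 vasoactive genes tested, the hormones, enzymes and receptors that set vessel tone, 14 had a difference above 0 and 0 passed with 24 arrays (3 higher at unadjusted p under 0.05), with a median of 0.13 (0.17 with 19 arrays). The endothelial nitric oxide synthase Nos3 differed by 0.08 ± 0.27 [0.24] and endothelin 1, Edn1, by 0.01 ± 0.14. Adm (adrenomedullin, a vessel dilator) differed by 0.69 ± 0.25 with 24 arrays and 0.32 with 19, Agtr1a (an angiotensin receptor) by 0.42 ± 0.15 and 0.33. The soluble guanylate cyclase subunit Gucy1a1, the receptor of nitric oxide, read 4.53, 4.32, 4.55, 3.49 and 4.00 at day 1 and 4.50, 4.85, 4.73, 4.88 and 4.96 at day 4, with a difference of 0.61 ± 0.17 [0.43] (limma adjusted p = 0.327). Only day 4 replicate 1 fell within the day 1 range.

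Of 22 T cell genes tested, 1 passed the test with 24 arrays. The gene that passed was Prkcq, the protein kinase C theta of the T cell receptor pathway. Prkcq read -1.17, -1.61, -1.43, -1.54 and -1.13 at day 1 and -0.19, -0.67, -0.19, -0.61 and -0.63 at day 4. No value overlapped, and the 2 low-signal arrays of day 4 were the highest. It rose by 0.92 ± 0.15 (1.89-fold, limma adjusted p = 0.0128) and by 0.76 with 19 arrays (adjusted p = 0.0111). The median of the 22 T cell genes was 0.60 (0.66 with 19 arrays), 22 of 22 were above 0 in both fits (Thy1, a surface protein of T cells and fibroblasts, at 0.00 with 24 arrays), 10 had an unadjusted p under 0.05 with 24 arrays, and 10 passed in the 18-array fit. Over all genes 49.7% were above 0 with 24 arrays and 57.6% with 19. With 24 arrays 3.13% were higher at unadjusted p under 0.05, and 0.975% were called higher with 18 (limma). In slides 1, 2 and 3 the median of the T cell list was 0.36, 0.47 and 1.01, beside -0.05, -0.15 and 0.28 for all genes. With the background subtracted by normexp instead, the median of T cells fell to 0.28, with 19 of 22 above 0.

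Cd8a, the coreceptor chain of cytotoxic T cells, read -4.27, -4.87, -4.53, -5.05 and -4.60 at day 1 and -3.78, -3.48, -2.97, -3.72 and -3.33 at day 4, again without overlap. Its difference was 1.21 ± 0.24 [1.04] (limma adjusted p = 0.055, and 0.0314 in the 18-array fit), and its 2 probes gave 0.94 and 1.21. The receptor chains Cd3d and Cd3g differed by 0.76 ± 0.33 [0.89] and 0.65 ± 0.18 [0.73], Cd6 by 0.86 ± 0.35 [1.06] (0.07 by its other probe) and the costimulator Icos by 0.86 ± 0.30 [0.67]. These 5 genes passed only in the 18-array fit. Cd3e, another chain of the receptor, differed by 0.34 ± 0.35 [0.49] and passed in none of the 3 fits.

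Markers of the thymus, a neighbouring organ that holds T cells, were read beside these genes. Of 8 thymus genes tested 7 were above 0, with a median of 0.14, and the list lay between -0.22 and 0.14 on the day 1 arrays and between -0.09 and 0.83 at day 4, relative to the mean of the 10 arrays. The highest was day 4 replicate 3, where Dntt, the enzyme that adds nucleotides in developing lymphocytes, read -1.04 against -3.06 to -2.41 on the other day 4 arrays. Without the low-signal arrays, this one among them, the thymus list lay between -0.22 and -0.10 at day 1 and between -0.09 and 0.09 at day 4, and its part in the T cell values was not tested.

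NK and cytotoxic genes had a median of 0.38 (0.61 with 19 arrays), with 15 of 16 above 0 and 0 past the test with 24 arrays (1 higher at unadjusted p under 0.05). The median ran from 0.00 in slide 1 to 0.52 in slide 2 and 1.13 in slide 3, and after normexp background correction the median of NK and cytotoxic cells was 0.02, with 8 of 16 above 0. Gzma, a granule protease, read 1.45, 0.08, 0.47, -0.50 and 1.87 at day 1 and 0.71, 1.58, 2.24, 1.05 and 1.73 at day 4, a difference of 0.79 ± 0.39 [0.79] with overlapping groups. Il2rb, a receptor chain of interleukin 2 and 15, differed by 0.75 ± 0.41 [0.99] and passed with 18 arrays (limma adjusted p = 0.0408). Klrg1, an inhibitory receptor of NK and T cells, read -5.96, -5.62, -5.02, -3.83 and -4.93 at day 1 and -2.81, -3.09, -2.80, -3.63 and -3.60 at day 4, all higher. It passed without the low-signal arrays (2.10, limma adjusted p = 0.0111) and not with all 24 (1.89 ± 0.41, adjusted p = 0.0868), and its probe exceeded background on only 2 of the 5 day 1 arrays. B cell genes gave a median of 0.10 (0.31 with 19 arrays) over 16 genes, of which 0 passed and 0 had an unadjusted p under 0.05 in either fit.

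**Figure D3:**
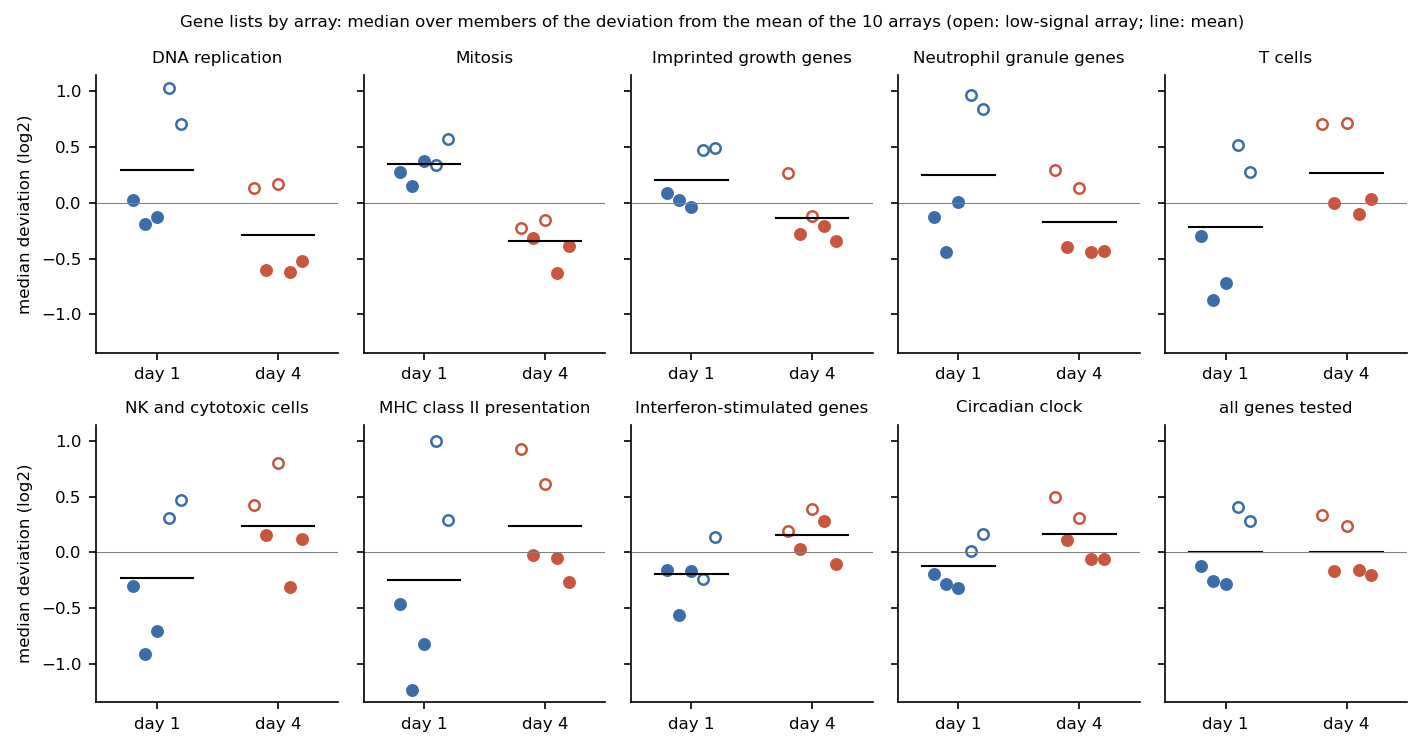
Position of each day 1 and day 4 array for 9 gene lists and for all genes tested (vertical axis, median over members of the log2 deviation from the mean of the 10 arrays; open circles are low-signal arrays, lines are means of 5). For mitosis genes the day 1 arrays lie between 0.15 and 0.58 and the day 4 arrays between -0.63 and -0.15; for T cell genes the groups separate only among the filled or among the open circles.

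Cd209a, a lectin receptor of dendritic cells related to human DC-SIGN, rose. It read -3.98, -4.21, -4.39, -3.89 and -4.43 at day 1 and -2.26, -3.21, -2.46, -2.66 and -2.85 at day 4. All day 4 arrays were higher, and the low-signal arrays of day 4 were the highest. The difference was 1.49 ± 0.26 (2.81-fold, limma adjusted p = 0.0212) and 1.29 with 19 arrays (adjusted p = 0.148), and its 2 probes gave 0.81 and 1.49. Its level went on to means of -3.01, -0.46 and 0.20 on days 7, 14 and 42. Among 17 dendritic cell genes 13 were above 0 (median 0.35, and 0.36 with 19 arrays, but 0.09 for Dendritic cells after normexp), and Cd209a alone passed. Flt3, the receptor that drives dendritic cell growth, differed by 0.63 ± 0.18 [0.64] and passed in the 18-array fit (limma adjusted p = 0.0409). Ccl17, a dendritic cell chemokine, differed by 0.79 ± 0.35 [0.89], and Xcr1, which marks cross-presenting dendritic cells, exceeded background on 0 of the 10 arrays. Cd207, the lectin langerin, and Itgax (CD11c) were below 0, at -1.25 ± 0.65 [-1.62] and -0.27 ± 0.32 [-0.10].

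Genes of antigen presentation were split by array signal. MHC class II genes, whose products display antigen to T cells, had a median of 0.52 (0.69 with 19 arrays), 10 of 11 above 0 and 0 past the test with 24 arrays (1 higher at unadjusted p under 0.05). H2-Ab1 read 4.04, 3.35, 3.71, 5.76 and 4.95 at day 1 and 5.92, 4.71, 5.67, 4.74 and 4.36 at day 4. The groups overlap, the low-signal arrays were the highest of each age, and the 3 other arrays of day 4 all lay above the 3 others of day 1. H2-Ab1 differed by 0.72 ± 0.38 with 24 arrays and by 0.90 with 19 (limma adjusted p = 1 and 0.103), and it, H2-Aa, H2-Eb1 and H2-DMb1 passed with 18 arrays (adjusted p = 0.0241, 0.0378, 0.0321 and 0.0358). Cd74, the chaperone of class II, gave 0.48 ± 0.33 [0.66], and Ciita, the transcriptional activator of these genes, 0.26 ± 0.26 [0.31], and neither passed in the 3 fits.

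For class I presentation 5 genes were picked out after their values were seen. Nlrc5, the activator of class I genes, read -1.71, -2.31, -1.28, -2.02 and -1.06 at day 1 and -0.82, -0.11, 0.30, 0.53 and -0.93 at day 4, so that all day 4 arrays were higher. It differed by 1.47 ± 0.30 [1.60] (limma adjusted p = 0.0747, and 0.0271 with 18 arrays), but a second probe gave -0.25. H2-K1, B2m, Tap1 and Psmb9, which encode a class I heavy chain, its light chain, the peptide transporter and an immunoproteasome subunit, differed by 0.63 ± 0.37 [0.90], 0.47 ± 0.22 [0.60], 0.54 ± 0.34 [0.78] and 0.58 ± 0.37 [0.88]. All 4 passed only with 18 arrays. H2-K1 has close relatives among class I genes whose transcripts its probe may also read.

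Interferon-stimulated genes showed smaller differences. Of 38 tested, 29 were above 0 (33 with 19 arrays), the median was 0.23 (0.33), and 0 passed with 24 arrays, while 7 were higher and 0 lower at unadjusted p under 0.05. Over all genes 49.7% were above 0 (57.6% with 19 arrays), and 3.13% were higher and 2.01% lower at that unadjusted p with 24 arrays (limma). The slide medians of the interferon list were 0.22, 0.22 and 0.36. Ifit3, an antiviral protein that binds foreign RNA, read -0.57, -0.99, -0.65, -1.59 and -1.13 at day 1 and -0.21, 0.07, -0.02, 0.30 and -0.11 at day 4, and its groups did not overlap. Its difference was 0.99 ± 0.25 [0.83] (limma adjusted p = 0.201 with 24 arrays, 0.407 with 19 and 0.00959 with 18), and its near copy Ifit3b may share the probe. Gbp2, a guanylate-binding protein, differed by 0.75 ± 0.23 [0.51] and Irf7, the regulator of type I interferon genes, by -0.02 ± 0.35 [0.34]. Tgtp2, an interferon-inducible GTPase with a near-identical copy, read 1.82, 1.42, 2.29, 0.93 and 1.45 at day 1 and 2.03, 2.94, 3.16, 4.04 and 2.64 at day 4. Its groups overlap through day 1 replicate 3 and day 4 replicate 1. The difference was 1.38 ± 0.27 [1.37] (limma adjusted p = 0.0571, and 0.029 with 18 arrays); this gene and Batf2 (0.92 ± 0.34 [1.24], an interferon-induced transcription factor) were picked after their values were seen.

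The core of the interferon-stimulated response element, GAAA, any 2 letters and GAAA again on either strand, was looked for in the 250 bases before the start site of 12622 tested genes with a promoter in the RefSeq table (GRCm38.p6). It was found for 14 of 30 genes of the list (46.7%) and for 3.22% of all; the 4 motifs described here were counted separately, so matches of different motifs may overlap. The 2 examples with the largest differences among those described above are shown 5′ to 3′ on the strand of the gene, with the match in capitals, 156 and 59 bases before the start site: chr19:34583358-34583397 (+ strand) for Ifit3 and chr3:142620589-142620628 (+ strand) for Gbp2. A match is a string of letters, not a measured binding site.
Ifit3: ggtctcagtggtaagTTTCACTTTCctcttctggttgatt
Gbp2: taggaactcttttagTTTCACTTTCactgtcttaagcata

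Granulocyte genes went the other way. Of 19 neutrophil granule genes 16 were below 0, with a median of -0.50 (-0.41 with 19 arrays), 0 past the test with 24 arrays and 4 lower at unadjusted p under 0.05, beside 320 of all genes (2.01%). S100a8, a calcium-binding protein of neutrophils, read 2.44, 2.02, 2.51, 2.66 and 3.34 at day 1 and 1.70, 1.82, 1.81, 1.85 and 2.07 at day 4. The ranges touch, with the highest day 4 array at 2.07 and the lowest day 1 array at 2.02, and the difference was -0.74 ± 0.24 with 24 arrays and -0.41 with 19. Mpo (myeloperoxidase) differed by -0.99 ± 0.25, Lcn2 (lipocalin 2) by -0.95 ± 0.36 and Elane (neutrophil elastase) by -0.22 ± 0.56, with 19-array values of -0.80, -0.81 and 0.22. The 2 low-signal arrays of day 1 were the highest of the 10 for this list, at 0.96 and 0.84, and their part in the result was not tested.

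Mast cell genes had a median of -0.51 (-0.44 with 19 arrays) over 10 genes, 7 of them below 0 and 0 past the test with 24 arrays. The medians of the list within slides were -0.67, -0.88 and 0.13. The mast cell proteases Cma1, Mcpt4 and Cpa3 differed by -1.12 ± 0.37, -1.09 ± 0.51 and -0.92 ± 0.55 (-0.91, -0.88 and -0.93 with 19 arrays). The members above 0 were the stem cell factor receptor Kit (0.31 ± 0.15 [0.21], unadjusted p = 0.0495 by limma), the transcription factor Gata2 (0.11 ± 0.29 [0.31]) and Hdc, which makes histamine (0.06 ± 0.31 [0.09]). Cma1 read -0.60, -0.47, -1.12, 0.46 and -0.04 at day 1 and -1.13, -1.82, -1.32, -1.30 and -1.80 at day 4, all lower. Ccl11, the eosinophil chemokine eotaxin, differed by -1.15 ± 0.33 [-1.15], the acute-phase protein Saa3 by -1.08 ± 0.41 [-0.87] and the cytokine Tnf by -0.91 ± 0.36 [-0.76], none past the test in the 24-array fit. Alveolar macrophage and GM-CSF genes had a median of -0.08, with 9 of 19 above 0, and the scavenger receptor Marco differed by -0.38 ± 0.38 [-0.15]. The alarmin Il33, made by alveolar type 2 cells, differed by 0.44 ± 0.24 with 24 arrays and 0.19 with 19.

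Cell division genes had fitted differences below 0 in all 57 members tested, in the 24-array and in the 19-array fit, and under each scaling and background correction tried. Of all 15895 genes, 7997 were below 0 with 24 arrays and 6742 with 19. The 30 mitosis genes had a median of -0.71 (-0.73 with 19 arrays) and the 27 DNA replication genes one of -0.54 (-0.52). None passed with 24 or with 19 arrays by limma. At unadjusted p under 0.05, 12 mitosis and 9 replication genes were lower with 24 arrays and 8 and 15 with 19. Over all genes 2.01% and 3.57% were. With 18 arrays 7 mitosis and 9 replication genes passed, beside 0.661% of all genes called lower. The mitosis list was lower on every day 4 array than on every day 1 array, and by -0.77, -0.68 and -0.69 in slides 1, 2 and 3. The replication list overlapped over the 10 arrays and separated within the low-signal and within the other arrays, and its slide medians were -0.73, -0.83 and -0.17.

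Rrm2, a subunit of the enzyme that makes deoxynucleotides, read 4.24, 4.33, 4.36, 4.23 and 4.62 at day 1 and 3.84, 3.74, 4.03, 3.55 and 3.79 at day 4. Every day 4 array was lower, and within day 4 the low-signal arrays were the highest. Its difference was -0.57 ± 0.27 [-0.62] (limma adjusted p = 0.958 with 24 arrays and 0.0352 with 18), and that of its partner Rrm1 -0.55 ± 0.20 [-0.67] (adjusted p = 0.632 and 0.014).

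Kif20a, a motor protein of the dividing spindle, read 2.92, 2.72, 2.99, 3.14 and 3.40 at day 1 and 2.72, 2.23, 2.51, 1.80 and 2.12 at day 4, with the nearest arrays equal at 2.72 to 2 decimals. It differed by -0.76 ± 0.34 (-0.83 with 19 arrays). Top2a, the topoisomerase that untangles chromosomes, read 2.21, 2.46, 2.57, 0.87 and 1.44 at day 1 and 0.40, 1.72, 1.09, 1.17 and 1.47 at day 4. Here the low-signal arrays were the lowest of each age, and the difference was -0.75 ± 0.39 with 24 arrays and -0.96 with 19. Both passed with 18 arrays (adjusted p = 0.0455 and 0.029, limma), as did the checkpoint kinase Bub1b (-0.70 ± 0.25 [-0.73]) and the replication licensing genes Cdc6 (-0.62 ± 0.27 [-0.58]) and Mcm10 (-0.71 ± 0.29 [-0.60]). Mki67, the proliferation antigen Ki-67, differed by -0.53 ± 0.45 [-0.70], Cdk1, the mitotic kinase, by -0.69 ± 0.37 [-0.56], and Pcna, the replication clamp, by -0.35 ± 0.21 [-0.28], none past the test in the 3 fits. The 13 cell cycle inhibitors, the opposite class, had a median of 0.07, with 7 of 13 above 0; Cdkn1a (p21) differed by -0.03 ± 0.34 [0.12].

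Promoters of these genes were read for the motifs known from cell cycle control. The cell cycle homology region, TTTGAA on either strand, stood in the 250 bases before the start site of 10 of 25 mitosis genes with a promoter in the table (40%) and of 13.6% of all genes tested. The CCAAT letters stood before 20 of 25 (80%) and 39.6% of all. For replication genes the E2F letters TTTCGCGC, TTTGGCGC or TTTCCCGC on either strand were found in 7 of 23 (30.4%) and in 2.92% of all. Examples, chosen because their genes passed in the 18-array fit, are shown 5′ to 3′ on the strand of the gene with the match in capitals (RefSeq, GRCm38.p6). They are chr11:99024348-99024383 (- strand, 179 bases before the start site) for Top2a, chr7:80294431-80294466 (+ strand, 30 bases) for Prc1 and chr11:98907998-98908035 (+ strand, 138 bases) for Cdc6. Prc1 bundles the microtubules of the spindle midzone.
Top2a: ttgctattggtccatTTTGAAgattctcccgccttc
Prc1: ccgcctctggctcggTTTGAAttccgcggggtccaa
Cdc6: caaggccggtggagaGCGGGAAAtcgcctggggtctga

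Fetal growth genes were mostly lower. Of 19 imprinted growth genes, which are read from 1 parental copy, 17 were below 0 (15 with 19 arrays), with a median of -0.29 (-0.42), 0 past the test with 24 arrays and 3 lower at unadjusted p under 0.05. Igf2, the fetal insulin-like growth factor, read -3.06, -1.0, -3.15, -2.60 and -2.77 at day 1 and -3.52, -4.18, -3.54, -3.53 and -3.86 at day 4. All day 4 arrays were lower and day 1 replicate 2 stood far above its group, with a difference of -1.21 ± 0.29 [-1.45] (limma adjusted p = 0.166) and -0.70, -2.29 and -0.55 within slides. Dlk1, an imprinted Notch-like ligand, differed by -0.86 ± 0.74 [-0.70] and Magel2 by -0.78 ± 0.20 [-0.54].

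Igf2bp1, a fetal RNA-binding protein that steadies growth transcripts, read -1.04, -1.41, -1.32, -0.14 and -0.46 at day 1 and -1.31, -2.06, -1.45, -2.34 and -2.40 at day 4. The ranges overlap through day 4 replicate 1, and day 4 was lower without overlap both among the low-signal and among the other arrays. It was the 1 gene called lower without the low-signal arrays (-1.01, limma adjusted p = 0.0235) and gave -1.04 ± 0.27 (adjusted p = 0.222) with all. Its relative Igf2bp3 differed by -0.49 ± 0.31 [-0.75], and the median of the 7 fetal RNA-binding and Hmga genes was -0.29. Igfbp2, a binding protein of the insulin-like growth factors and a marker of alveolar type 1 cells, differed by 0.81 ± 0.40 with 24 arrays, 1.16 with 19 and passed with 18 (limma adjusted p = 0.0129), and Igf1 by -0.33 ± 0.84 [-0.40].

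Nmrk2 and Ptges3l were the other genes that fell. Nmrk2, a nicotinamide riboside kinase known from muscle, read -4.68, 0.41, -2.77, -2.10 and -2.23 at day 1 and -6.32, -6.86, -5.18, -6.46 and -5.58 at day 4. It was well above background on 5 of 5 arrays at day 1 and 0 of 5 at day 4, and was at least 8.73-fold lower by the same bound as above (fitted difference -3.81 ± 0.63, limma adjusted p = 0.0128, and -3.95 with adjusted p = 0.122 with 19 arrays). Ptges3l, named for its likeness to a prostaglandin E synthase that also acts as a cochaperone, read 0.51, 1.34, 0.44, 0.74 and 1.02 at day 1 and 0.02, -0.04, 0.02, 0.01 and -0.03 at day 4. The day 4 values were nearly equal, all were below day 1, and the difference was -0.82 ± 0.15 [-0.79] (limma adjusted p = 0.0412, and 0.122 with 19 arrays).

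Heart muscle markers were high on 1 array. For 18 heart muscle genes day 1 replicate 2 lay 4.27 above the mean of the 10 arrays, the other day 1 arrays between -1.37 and 0.38 and the day 4 arrays between -0.70 and 0.01. Nppa, the atrial natriuretic peptide, read 7.62 there against -3.31 to -1.47 on the other day 1 arrays and -3.90 to -2.29 at day 4. All 18 heart genes were below 0 (median -0.78, 0 past the test, 0 with unadjusted p under 0.05), while 9 of 11 skeletal muscle genes were, with a median of -0.36. The skeletal list lay at 0.01 on day 1 replicate 2 and was highest on day 1 replicate 4, at 0.38. Without day 1 replicate 2 the difference of Nmrk2 was -3.14 (limma adjusted p = 0.0234) and that of Ptges3l -0.68 (adjusted p = 0.0871), which ends the call of Ptges3l. The part of heart muscle RNA in the difference of Nmrk2 was otherwise not tested.

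Hlf, a clock-controlled transcription factor of the PAR bZip family, and Vsnl1, a calcium sensor of nerve cells, rose. Hlf read -2.65, -2.34, -2.55, -2.43 and -2.90 at day 1 and -1.66, -1.80, -1.59, -1.78 and -1.88 at day 4, without overlap. The rise was 0.83 ± 0.16 (1.78-fold), with an adjusted p of 0.0494 at the threshold (limma), and 0.69 with 19 arrays (adjusted p = 0.148). Of 18 clock genes 17 were above 0 in both fits (median 0.25 in each), and Hlf alone passed. The core repressor Per1 differed by 0.66 ± 0.42 with 24 arrays and 0.82 with 19, Dbp, the relative of Hlf, by 0.41 ± 0.41 [0.64], and the activator Arntl (Bmal1) by 0.41 ± 0.28 with 24 and 0.15 with 19. The hour at which lungs were taken is not given in the sources used here, so it cannot be told apart from age. Vsnl1 read -1.73, -1.93, -1.82, -2.28 and -2.19 at day 1 and -1.20, -1.22, -1.14, -1.39 and -1.20 at day 4, a rise of 0.76 ± 0.14 (limma adjusted p = 0.0444) and of 0.55 with 19 arrays (adjusted p = 0.133).

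In the glucocorticoid, hypoxia and antioxidant lists 0 genes passed with 24 arrays (3 higher and 1 lower hypoxia genes, and 1 and 1 glucocorticoid genes, at unadjusted p under 0.05). Glucocorticoid genes had a median of 0.21 (0.28 with 19 arrays) with 12 of 16 above 0 and 0 past the test. Fkbp5, a chaperone induced by glucocorticoid, differed by -0.74 ± 0.30 [-0.61], whereas Sgk1, a kinase induced by the same hormone that raises sodium uptake, differed by 0.47 ± 0.14 [0.43]. Hypoxia response genes had a median of -0.10, with 9 of 19 above 0. Within that list Hif3a, an inhibitory subunit of the hypoxia factor, differed by -0.83 ± 0.33 [-0.80] and the glycolytic regulator Pfkfb3 by 0.69 ± 0.20 [0.67], of which Pfkfb3 passed with 18 arrays (limma adjusted p = 0.0246). Antioxidant genes had a median of -0.08 (-0.04 with 19 arrays), with 13 of 18 below 0 (12 with 19 arrays). Against that direction Sod3, the extracellular superoxide dismutase, differed by 0.59 ± 0.38 [0.84] and passed with 18 arrays (limma adjusted p = 0.00894).

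Epithelial lists had medians from -0.11 to 0.19 with 24 arrays, beside -0.00 for all genes, and 0 of their genes passed in that fit. The 21 surfactant and alveolar type 2 genes had a median of -0.01 (0.13 with 19 arrays), 10 above 0, 0 past the test and 0 at unadjusted p under 0.05 with 24 arrays. Sftpc read 8.90, 8.69, 8.38, 10.05 and 9.42 at day 1 and 9.24, 8.89, 9.56, 8.69 and 8.53 at day 4, and the low-signal arrays were the highest of each age. It differed by -0.10 ± 0.26 [0.05], Sftpb by 0.00 ± 0.30 [0.20], Sftpa1 by -0.17 ± 0.35 [0.01] and the lipid transporter Abca3 by 0.00 ± 0.32 [0.18]. Standard errors of these 4 genes were 0.26 to 0.35. In the 24-array fit even the Igf2 difference of -1.21 did not pass (limma adjusted p = 0.166). Differences well above these standard errors could therefore go uncalled with this number of arrays. Alveolar type 1 genes had a median of 0.16 in both fits, with 16 of 18 above 0 with 24 arrays, and Ager, Aqp5 (a water channel) and Pdpn differed by -0.04 ± 0.39 [0.21], 0.27 ± 0.38 [0.50] and 0.03 ± 0.26 [0.12]. Club cell genes had a median of 0.19 (0.16 with 19 arrays), with 10 of 11 above 0 with 24 arrays. Scgb1a1 differed by 0.19 ± 0.27 [0.25], the ciliary master regulator Foxj1 by -0.34 ± 0.29 [-0.16] and the sodium channel subunit Scnn1a by -0.14 ± 0.35 [0.05].

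Kcne2, a potassium channel subunit, read 2.12, 1.62, 2.17, 0.17 and 1.68 at day 1 and 2.18, 2.80, 2.30, 3.08 and 3.14 at day 4. Every day 4 array was higher, although day 1 replicate 3 and day 4 replicate 1 nearly met. It passed with 19 arrays (1.04, limma adjusted p = 0.0335) and not with 24 (1.15 ± 0.30, adjusted p = 0.231).

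Among vessel genes, most capillary ones were above 0, whereas 5 of 7 lymphatic endothelial genes were below 0 (4 with 19 arrays). Of 23 capillary endothelial genes 20 were above 0 in both fits (median 0.17, and 0.30 with 19 arrays), beside 49.7% of all genes (57.6% with 19). With 24 arrays 0 of them passed and 5 were higher at unadjusted p under 0.05 (limma), beside 3.13% of all genes. The slide medians of the capillary list were -0.01, -0.02 and 0.67, beside 0.28 for all genes in slide 3. Angpt2, the angiopoietin that loosens vessels for sprouting, read 0.99, 0.33, 0.66, 0.27 and 0.94 at day 1 and 1.80, 1.30, 1.79, 1.40 and 1.22 at day 4. All day 4 arrays were higher, and the difference of 0.86 ± 0.17 [0.64] just missed the threshold (limma adjusted p = 0.0536, and 0.039 with 18 arrays). Emcn and Tmem100, both of lung capillaries, differed by 0.39 ± 0.14 [0.39] and 0.51 ± 0.21 [0.56] and passed with 18 arrays (limma adjusted p = 0.0338 and 0.0431). The angiopoietin receptor Tek differed by 0.43 ± 0.20 [0.21], Fibin by 0.65 ± 0.18 [0.57], Vegfa by 0.26 ± 0.17 [0.24], its receptor Kdr by 0.16 ± 0.21 [0.16], Pecam1 by 0.17 ± 0.25 [0.24] and the capillary carbonic anhydrase Car4 by 0.07 ± 0.38 [0.30], none past the test with 24 arrays. Second probes of Vegfa (-0.18) and of Fgf1 (-0.06) pointed the other way from the probe used.

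In the mesenchyme, differences were spread over fibroblast lists. Lipofibroblast genes had a median of 0.20 (0.24 with 19 arrays), with 14 of 18 above 0. Inmt, a methyltransferase of lung fibroblasts, read 0.67, -0.17, -0.50, 1.94 and 1.68 at day 1 and 3.33, 1.87, 2.70, 1.63 and 1.76 at day 4. The 3 day 4 arrays with ordinary signal lay above their day 1 counterparts and the low-signal arrays above theirs, although the whole groups overlap. Its difference was 1.53 ± 0.53 with 24 arrays and 1.75 with 19 (limma adjusted p = 0.59 and 0.292, and 0.000969 with 18). Crabp1, a retinoic acid binding protein, read -4.03, -3.60, -3.63, -1.83 and -2.78 at day 1 and -0.86, -1.96, -0.44, -1.41 and -1.72 at day 4, a difference of 1.90 ± 0.46 [2.06] (limma adjusted p = 0.171, and 0.00202 with 18 arrays). Its groups overlap through the low-signal day 1 replicate 4 and day 4 replicate 2.

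Other fibroblast genes overlapped between the ages or differed less. Pdgfra, the receptor of septal myofibroblasts, read 1.58, 1.30, 1.61, 0.91 and 1.39 at day 1 and 2.12, 1.95, 2.18, 1.89 and 1.98 at day 4, without overlap, with a difference of 0.67 ± 0.20 (0.45 with 19 arrays). Elastin, Eln, differed by 0.64 ± 0.34 (0.76 with 19 arrays), the fibulin Efemp1 by 0.49 ± 0.16 (0.32), Fgf1 by 0.53 ± 0.18 (0.26) and the pericyte receptor Pdgfrb by 0.53 ± 0.30 (0.67). Ltbp2 and Tgfb3, a matrix protein that binds fibrillin and a TGF-beta ligand, differed by 0.53 ± 0.33 [0.67] and 0.57 ± 0.29 [0.54]. Of the genes in this paragraph Pdgfrb, Ltbp2 and Tgfb3 passed with 18 arrays (limma adjusted p = 0.0271, 0.0338 and 0.0224). Acta2 (smooth muscle actin) differed by -0.39 ± 0.41 [-0.22], Col1a1 by -0.08 ± 0.26 [0.03], Tcf21 (a fibroblast transcription factor) by 0.15 ± 0.26 [0.27], Plin2 (a lipid droplet coat) by -0.30 ± 0.33 [-0.09] and Lpl (lipoprotein lipase) by -0.01 ± 0.51 [-0.36]. The elastic fibre list had a median of 0.08 with 12 of 21 above 0, and the collagen and stromal matrix list one of -0.05 with 8 of 22.

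**Figure D4:**
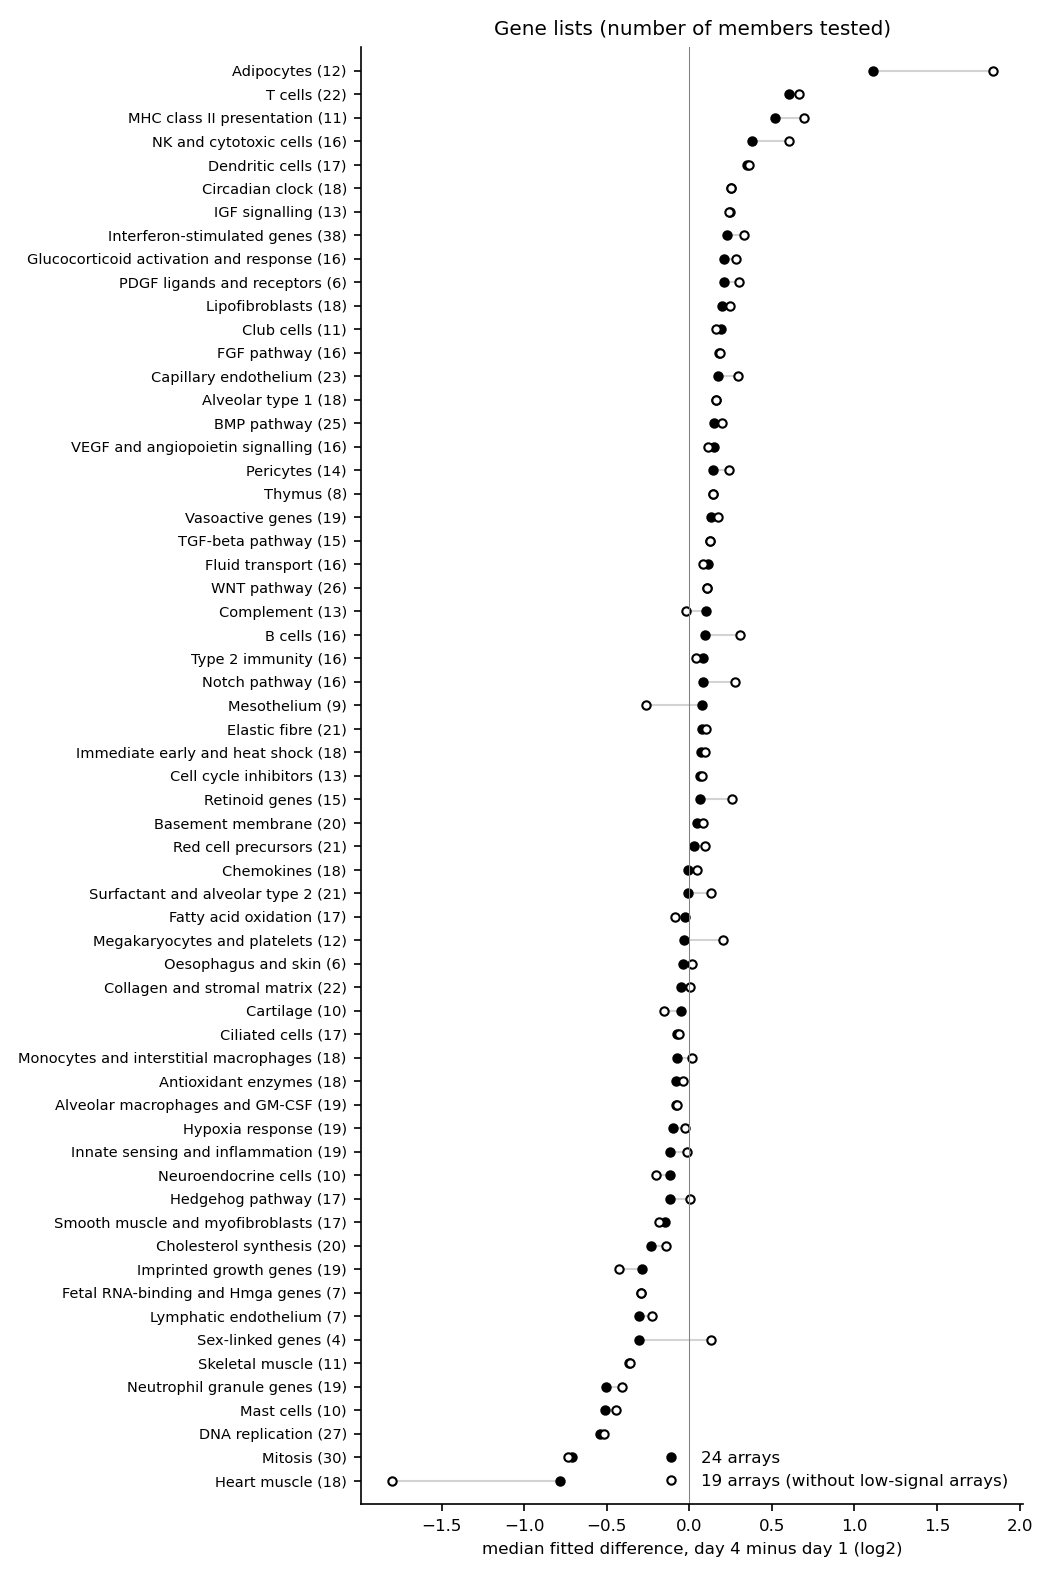
Median fitted difference (horizontal axis, log2, day 4 minus day 1) of the 61 gene lists with 24 arrays (filled) and with 19 arrays (open); the number of members tested is in brackets. Heart muscle (-0.78), mitosis (-0.71) and DNA replication (-0.54) lie lowest with 24 arrays, adipocytes (1.11), T cells (0.60) and MHC class II (0.52) highest, and 51 lists keep the sign of their median in both fits.

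Several genes with large differences are of kinds not covered by the lists above. Lack of overlap between the groups was a rule by which some of the genes named, here and above, were picked. It is therefore no separate support for them. Over all genes tested 1.07% were separated upwards and 0.547% downwards. Prokr2, a prokineticin receptor, read -4.48, -4.0, -4.10, -6.50 and -7.00 at day 1 and -2.78, -2.04, -2.64, -1.97 and -1.91 at day 4. No day 1 array reached the day 4 range, and the low-signal day 1 arrays were the lowest. Those low-signal readings were as low as the day 4 readings of Nppc, which were not above background. The 24-array difference of Prokr2 may therefore hold only a bound. It was 2.95 ± 0.71 (limma adjusted p = 0.166), with 2.22 for 19 arrays and an adjusted p of 0.000287 with 18. Thsd7b, Asic2 (an acid-sensing ion channel) and Rgs8 (a regulator of G-protein signalling) differed by 1.96 ± 0.70 [1.31], 1.83 ± 0.75 [1.87] and 1.79 ± 0.64 [1.66], each without overlap between the groups, and Fabp1, a fatty acid binding protein, by 1.78 ± 0.60 [1.72]. None of these 5 passed with 24 arrays. In the other direction Cyp1a1, a detoxifying oxidase, differed by -1.63 ± 0.80 [-1.41] and Ctnna2, a catenin of neurons, by -1.29 ± 0.53 [-1.73], also without overlap. Igf2os, an antisense RNA at the Igf2 gene, differed by -1.16 ± 0.35 [-1.35] (limma adjusted p = 0.384), again without overlap.

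Besides those already described, 8 genes passed without the low-signal arrays, all higher. Wnt10b, a Wnt ligand, read -2.62, -3.22, -2.45, -1.38 and -1.70 at day 1 and -0.57, -1.40, -0.66, -1.09 and -1.23 at day 4. Its groups overlap only through the low-signal day 1 array at -1.38, and the difference was 1.52 with 19 arrays (limma adjusted p = 0.0111) and 1.28 ± 0.30 with 24 (adjusted p = 0.14). Nod2, a sensor of bacterial wall fragments, differed by 1.05 with 19 arrays (limma adjusted p = 0.0123) and 0.75 ± 0.28 with 24, and Hr, a corepressor of nuclear receptors, by 1.03 (adjusted p = 0.022) and 0.91 ± 0.32. The others were 9330159F19Rik, Lrtm2, Ces2e (a carboxylesterase), Lrrc4c and C1qtnf2, with 19-array differences of 2.02, 1.51, 1.14, 0.88 and 0.71 and adjusted p from 0.0111 to 0.0498. C1qtnf2 gave 0.53 ± 0.34 [0.71] with 24 arrays. Picked after their values were seen from the 18-array fit, Gdnf, a neurotrophic factor, differed by 1.00 with 19 arrays and Sema3c, a guidance signal of growing vessels and nerves, by 1.03.

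The step from day 1 to day 4 was set against that from day 7 to day 14, which shares no array with it. The difference of the steps passed for 511 genes with 24 arrays (3.21%) and 1432 with 19 (9.01%) by limma. Of the 10 genes called, Bmp2, Nmrk2 and Vsnl1 were among the 511. Bmp2 rose by 0.92 in the early step and gave -0.65 in the later one, a difference of 1.57 ± 0.20 (limma adjusted p = 0.000327). Vsnl1 gave 0.76 and -0.09 (limma adjusted p of the difference 0.0197). For Nmrk2, which exceeded background on 0 of 5 arrays at days 4 and 7 and 1 of 5 at day 14, the steps hold only bounds and its call is not read here. For Scube2 the steps were 1.18 and 1.18, a difference of 0.00 ± 0.25.

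Other genes had opposite signs in the 2 steps. Prokr2 gave 2.95 in the early step and -4.91 in the later one, Grem1 gave 1.21 and -3.83, and Asic2 1.83 and -4.21, with adjusted p of the difference from 0.000327 to 0.00275 (limma). The early step of Prokr2 includes the low day 1 readings described above and may hold only a bound. Cyp1a1 gave -1.63 and 4.62 (limma adjusted p = 0.00321) and Lcn2 -0.95 and 1.2 (adjusted p = 0.018). Cdk1 and Rrm2 had the same sign in both steps and lower values in the later one, -0.69 and -2.87 (limma adjusted p = 0.0224) and -0.57 and -2.24 (0.0151). For Inmt the steps were 1.53 and 4.98 (limma adjusted p = 0.0117).

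**Figure D5:**
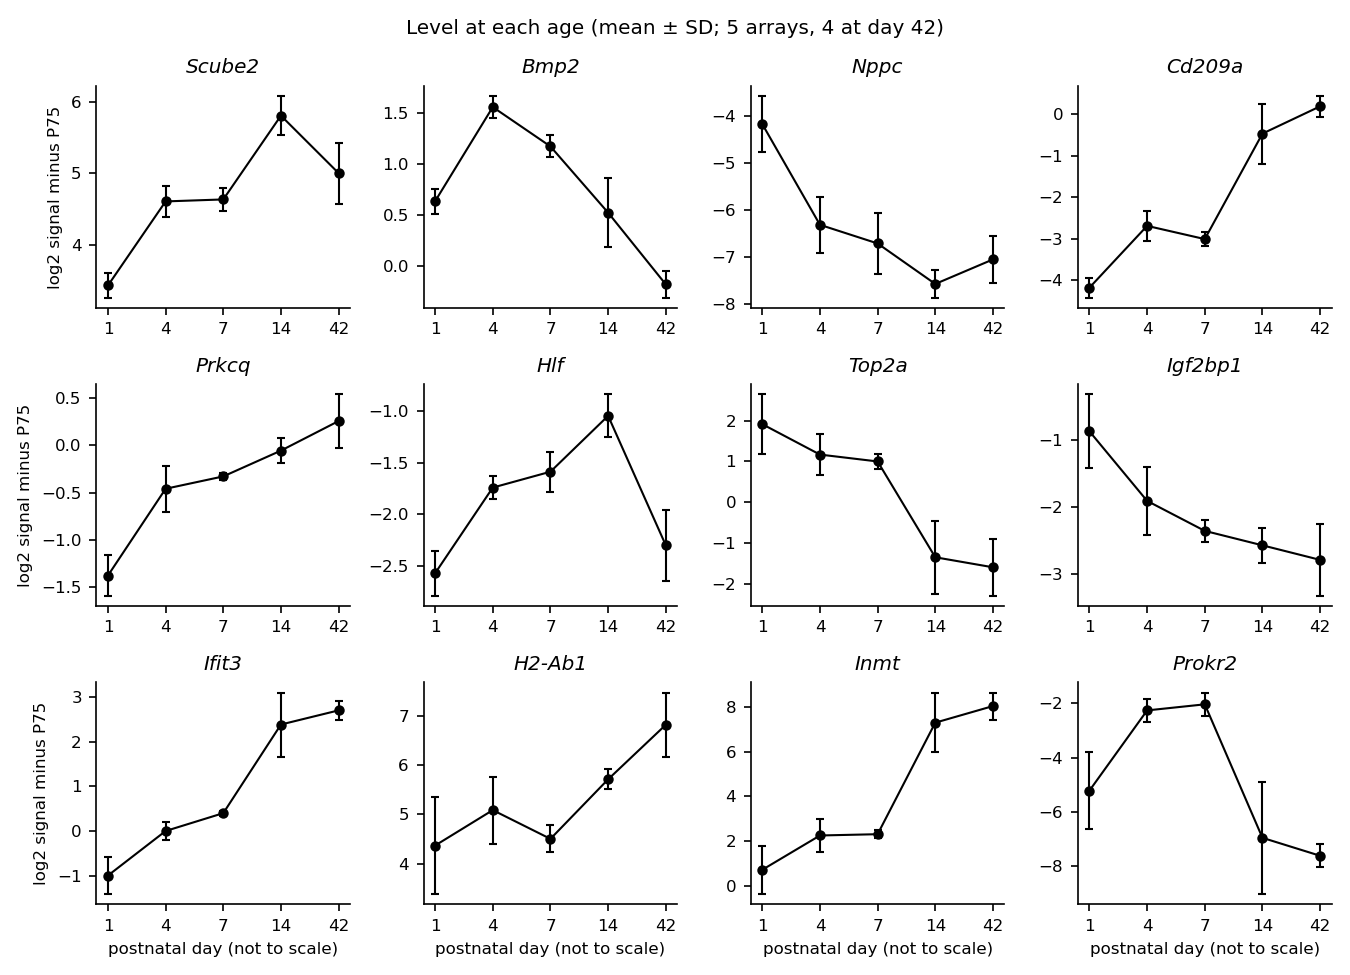
Level of 12 genes at postnatal days 1, 4, 7, 14 and 42 (horizontal axis, ages evenly spaced; vertical axis, log2 signal minus the 75th percentile of the array; points are means and bars SD of 5 arrays, 4 at day 42). Bmp2 and Prokr2 are higher at day 4 than at day 1 and lower again by day 14, Cd209a and Inmt go on to higher levels, and Nppc stays low after day 1.

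Adipose markers also varied between arrays. Of 12 adipocyte genes 10 were above 0, with a median of 1.11 (1.84 with 19 arrays) and 0 past the test. Ucp1, the uncoupling protein of brown fat, read -7.24, -2.01, -4.92, -6.56 and -3.07 at day 1 and -5.85, -2.97, -3.50, 4.86 and 0.78 at day 4, and Adipoq (adiponectin) was also highest on day 4 replicate 4, at 1.11. For the whole list that array lay 3.53 above the mean of the 10 and the others between -1.34 and 0.86. The part of this tissue in other differences was not tested.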

How the data were processed

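The scan files hold intensity values from Agilent Feature Extraction (version 10.7.3.1 per the file headers, 10.7.1.1 per the submitters' processing notes), which subtracted background and removed spatial trends before the authors deposited them. The deposited table of log2 values by the authors served as an alternative; its normalization is not given in the sources used here. The other flags used per spot (well above background, saturated, non-uniform) were set by the same program, per the file headers.

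Processed signals of 59305 non-control spots were averaged per probe, turned to log2 and lowered by the 75th percentile of the array. Probes were named through RefSeq accessions (26056 probes, 19752 symbols). The brightest probe of each gene was kept where well above background on at least 4 of 24 arrays, leaving 15895 genes. Differences came from limma 3.58.1 in R 4.3.3 (lmFit and eBayes on all 5 ages, no block), with Benjamini-Hochberg adjustment over all genes. The method was tested on simulated data. Those gave each gene the same spread on every array, independent of other genes, and held no low-signal arrays. They cannot show how the fit handles the unequal arrays of these data. The number of arrays limits the precision.

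Genes named are those called with 24 or 19 arrays, the 6 largest rises and falls without overlap, and marker genes and up to 3 low-p members of 61 lists, a selection being printed. Others are said to be picked after their values were seen. The comparison, the lists and their members were chosen with earlier results of these data known. Replicate numbers were not used to pair the samples in the main fit. Alternatives were background correction, normalization, scaling, filters, probe rule, array weights, blocks and leaving out arrays. Some genes of the lists are counted but not reported by name here.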

Additional observations from a re-analysis of the deposited data

Results flagged for a closer look

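In groups of 5 arrays, 1 array stood far from the other 4 in 13 of 456 groups looked at, judged by its gap to the nearest array against the range of the group; chance marks about 1 in 20 groups. The values are log2 levels, with the range of the other 4 arrays of that age after each.

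At day 1, replicate 4, which has the lowest 75th percentile, was the lowest for Kcne2 (0.172 against 1.62 to 2.17), Pcna (3.77 against 4.59 to 4.69), Efemp1 (1.24 against 1.51 to 1.61) and Fgf1 (2.81 against 3.74 to 4.06). Replicate 5 was the highest for Rrm1, at 3.9 against 3.32 to 3.45. Replicate 2 was the highest for Nppa (7.62 against -3.31 to -1.47) and Igf2 (-1 against -3.15 to -2.6), the array on which the heart muscle list was also highest.

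At day 4, replicate 1 was the lowest for Npy1r (-0.901 against -0.615 to -0.512) and the highest for Agtr1a (1.31 against 0.78 to 0.931). Replicate 4 was the highest for Il33, at 2.66 against 2.04 to 2.21. Replicate 3 was the highest for the B cell receptor chain Cd79a (-1.86 against -4.36 to -3.82) and for the thymus list (0.832 against -0.0867 to 0.0914, relative to the 10 arrays). Replicate 2 was the highest for the list of sex-linked genes, at 3.22 against -1.56 to -0.638.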

How the results depend on the processing

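The number of genes past the test depended on the processing, and the cause was not tested. With 24 arrays it was 10, 7 higher and 3 lower. It was 2 (2 and 0) with normexp background, 32 (25 and 7) with quantile normalization, 4 (2 and 2) with median scaling, 99 (69 and 30) with the authors' table, 5 (3 and 2) with the mean of a gene's probes, 7 (5 and 2) with slide as a block and 471 (291 and 180) with array weights. The filter on all 10 arrays gave 9 (8 and 1). Day 1 and day 4 arrays alone gave 0 by limma (519 at unadjusted p under 0.05), and 1 (1 and 0) without low-signal arrays. The 19-array fit gave 12 and 1, or 8 and 1 with slide as a block. Leaving out 1 day 1 or day 4 array gave 4 to 12 genes (2 to 9 higher, 1 to 3 lower); without day 4 replicate 3 or 4 it was 4. Leaving out 1 array of another age gave 6 to 49, 4 to 40 higher and up to 9 lower: 49 without day 14 replicate 5, 17 (14 higher) without day 42 replicate 4. Leaving out the low-signal arrays and day 14 replicate 5, added after seeing the data as were the slide block without low-signal arrays and the later-age omissions, gave 260 (155 and 105). The step contrast rose from 511 to 1432 genes without low-signal arrays, and the median of NK and cytotoxic cells was 1.131 within slide 3. With the replicate number as a block 7 genes passed (5 and 2). Correlations between same-numbered arrays ran from -0.85 to 0.60. Their signs followed the split into low-signal and other arrays, so they cannot show whether replicate numbers pair the samples. Of the 10 called genes, Bmp2, Scube2 and Nppc passed in all 10 fits that left out 1 day 1 or day 4 array, Prkcq in 9, Nmrk2 in 8, Cd209a in 4, Ptges3l in 3, Vsnl1 in 2 and Hlf and Npy1r in 1 each. Sign changes were counted only for 166 genes chosen for naming, partly for large differences or low p. Among these no value called with 24 arrays or under the alternative changed sign. Of 5876 values called in neither, 157 did. Probes near background hold bounds only.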

Other observations

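The values of 4 lists are given beside a median of -0.00 for all genes with 24 arrays (0.04 with 19). FGF pathway genes had a median of 0.18 (0.19 with 19 arrays), with 14 of 16 above 0, and Notch pathway genes, which act in the choice of cell fates, one of 0.08 (0.27), with 12 of 16 above 0. Cholesterol synthesis genes had a median of -0.23 (-0.14), with 6 of 20 above 0 with 24 arrays and 1 of 20 with 19. Lymphatic endothelial genes had one of -0.30 (-0.22) over 7 genes. In these 4 lists 0 genes passed the limma test with 24 arrays, where unadjusted p under 0.05 was reached by 2 FGF genes (higher) and 1 lymphatic gene (lower).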
